A study of Sus scrofa with 12 samples.

Results

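The genes described here are the expressed rows that carry only an Rfam family number as their name in the pig annotation. Rfam groups RNAs by shared sequence and folding, and in this annotation most of its families are small non-coding RNAs. Of 24358 genes in the tables, 2230 had such a name, 796 of these were above 0 in at least 1 library, and 186 had a mean of at least 1 FPKM (fragments scaled to transcript length and library size) over the 12 libraries and were kept. These 186 members belonged to 139 families. Members were thus chosen by their mean FPKM over all groups, and that level is a description only. Members just inside the threshold were RF00155 (SNORA66), RF01964 and RF00026 (U6), at means of 1.03, 1.03 and 1.01 FPKM, and RF00580, RF00600 and RF00309 fell just outside at 0.97, 0.97 and 0.96 FPKM.

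The libraries came from pig pericyte-derived iPS (PC-iPS) cells, with 3 libraries in each of 4 groups. WT PC-iPS cells carried no edit, and NANOG knock-in cells carried a tdTomato reporter with a FLAG tag and puromycin resistance, placed by CRISPR/Cas9 at the NANOG loci. The 3 knock-in libraries came from 3 separate lines, nanog1 to nanog3, which were sorted for tdTomato and were not single clones, and both groups grew in LCDMV, a medium with LIF, CHIR99021, dimethindene, minocycline and vitamin C. The Activin A and SB431542 groups were knock-in cells in the same medium without LIF, given either the TGF-beta family ligand Activin A or the inhibitor of its receptors, SB431542. Nothing in the labels says how the 3 WT libraries were separated, so p-values measure only the spread between these libraries. Sequencing libraries were made from total RNA with oligo(dT), which selects polyadenylated RNA.

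Small nucleolar RNAs (snoRNAs) guide the chemical modification of other RNAs, mainly ribosomal RNA. C/D box snoRNAs guide 2'-O-methylation with fibrillarin, and H/ACA box snoRNAs guide pseudouridylation with dyskerin. A few of each kind act in ribosomal RNA cleavage instead, and the related scaRNAs guide modification of spliceosomal RNAs in Cajal bodies. In vertebrates most snoRNAs lie in introns of host genes, often ribosomal protein genes or non-coding host RNAs such as GAS5 and SNHG1, and are trimmed out of the spliced intron. Mature snoRNAs have no poly(A) tail, so oligo(dT) libraries sample them poorly. Rfam also holds short conserved stretches of long non-coding RNAs, and rows of that sort are pieces of a longer transcript.

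The members comprised 69 C/D box snoRNAs, 40 H/ACA box snoRNAs, 5 scaRNAs and 10 rows of U6, 7SK, RNase P, SRP or telomerase RNA. A further 29 members of lower-numbered families (RF00213 to RF01290) and 33 of higher-numbered families (RF01872 to RF02271) are given by family number. Families with a single member numbered 110, and the other 29 families held 76 members. U6 had 889 rows in the table and 6 members, and 7SK had 132 rows and 1 member. Reads of similar copies can be shared between rows, and values of single rows in such families are uncertain.

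NANOG, the edited gene, was listed at 9.71, 16.4 and 27.6 FPKM in WT, at 52.0, 101 and 70.4 FPKM in knock-in, at 109, 195 and 157 FPKM with Activin A, and at 11.8, 27.2 and 11.8 FPKM with SB431542. Knock-in and WT did not overlap, nor did Activin A and SB431542. Total depth is unknown from FPKM, but the commonest ratio of low values put the WT libraries at 0.56 to 0.63 of the depth of knock-in 1, against 0.72 and 0.88 for the other knock-in libraries and 0.83 to 0.97 for the treated ones. Mitochondrial protein genes took 14.0% to 16.4% of summed FPKM in WT and 9.71% to 11.5% in knock-in. Pericyte markers summed to 28.3 to 30.3 FPKM in WT and 48.5 to 50.1 FPKM in knock-in, and 2 of 6 tested were called higher (PDGFRB and ACTA2). MCAM had a fold change just below 0 (-0.02). DES, too low to be tested, had means of 0.42 FPKM in WT and 0.03 FPKM in knock-in. Feeder cells had been removed before RNA extraction by letting them attach to plates. Fibroblast markers summed to 8.89 to 14.8 FPKM in WT and 22.7 to 46.1 FPKM in knock-in, with 1 of 5 tested called higher (DCN) and FAP listed at 0 in every library. COL3A1 made up 23.2 FPKM of the sum in knock-in 3, and COL1A1 had a mean of 0.62 FPKM in knock-in and 1.13 FPKM in WT (adjusted p = 0.162, limma, not called). At an unadjusted p under 0.05 (limma), 3 of the 5 were higher and 1 lower. LUM and POSTN, too low to be tested, had means of 0.07 and 0.12 FPKM in WT and 0.02 and 0 FPKM in knock-in. The part of depth, mitochondrial share and these markers in the results below was not tested, and in bulk samples fewer cells of a type and less RNA per cell cannot be told apart.

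The first comparison asked how knock-in cells differed from WT. Calls among the members went one way, and they lay among snoRNAs and unnamed families. Of 185 members that passed the low-value filter, 30 were called lower and 0 higher (limma on log2(FPKM + 1); a call needed a log2 fold change of 1 or more in size with an adjusted p, by Benjamini-Hochberg over all genes tested, no larger than 0.05). With no low-value filter the number called lower was 16. Log2 fold changes of the 30 ran from -1.03 to -2.21, and the ratio of the WT to the knock-in mean FPKM ran from 2.31, for RF00284 (SNORD74), to 5.88, for RF00136 (SNORD81). Over all 14014 genes tested, 99 (0.706%) were called lower and 225 (1.61%) higher, so members made up 30.3% of the genes called lower. With the replicate number as a block, these counts over all genes were 60 and 172. At an unadjusted p under 0.05, 83 members were lower and 4 higher, against 12.5% and 16.1% of all genes. Groups did not overlap for 72 members lower in knock-in and 4 higher, against 16.7% and 19.0% of all genes. By adjusted p alone, 39 members were lower, against 2.34% of all genes. Fold changes were below 0 for 150 of the 185 members, against 50.2% of all genes, and their median was -0.48 on the log2 scale over the members and 0.00 over all genes. The summed FPKM of all members was 1713, 1704 and 1703 in WT and 1055, 1275 and 880.0 in knock-in. All 3 knock-in libraries lay below every WT library, and knock-in 3 was the lowest.

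Leaving out a single library lowered the number of calls in most cases. It was 10 without knock-in 1, 17 without knock-in 2, 18 without knock-in 3, 16 without WT 1, 19 without WT 2 and 30 without WT 3. All 30 members kept a fold change below 0 in these 6 fits, and 9 were called in all 6.

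Both main classes of snoRNA held calls. Of the C/D box snoRNAs, 15 of 69 were called lower with a median log2 fold change of -0.68, and their summed FPKM was 561 ± 60.9 in WT and 336 ± 92.6 in knock-in (SD, n = 3 each). Of the H/ACA box snoRNAs, 6 of 40 were called lower with a median of -0.55, and their sums were 249 ± 43.6 and 149 ± 34.5 FPKM. In the unnamed families, 6 of 28 tested lower-numbered members and 3 of 33 higher-numbered members were called lower. Of the 5 scaRNAs and of the 10 U6, 7SK, RNase P, SRP and telomerase rows, 0 were called, with sums of 15.0 ± 0.71 against 15.0 ± 3.95 FPKM for scaRNAs and 20.4 ± 4.35 against 19.5 ± 2.77 FPKM for the others. At an unadjusted p under 0.05 (limma), 0 scaRNAs passed, and of the other rows 0 were lower and 1 higher. The difference between classes was not tested. MicroRNA genes, a list of other short genes chosen after values were seen, summed to 134 ± 29.3 FPKM in WT and 132 ± 27.5 FPKM in knock-in.

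**Figure D1:**
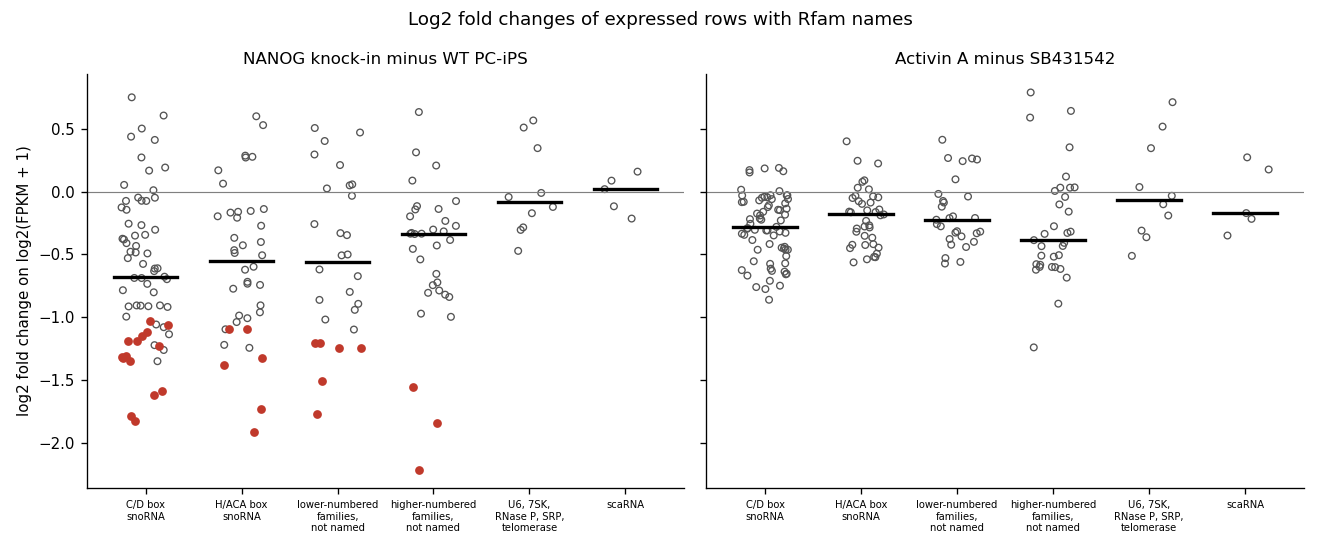
Log2 fold change on log2(FPKM + 1) of every tested member (points), by class, in both comparisons. Filled points are called members, open points are not called and bars are class medians. The 30 filled points all lie below 0 in the knock-in comparison, and the other comparison has 0.

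**Figure D2:**
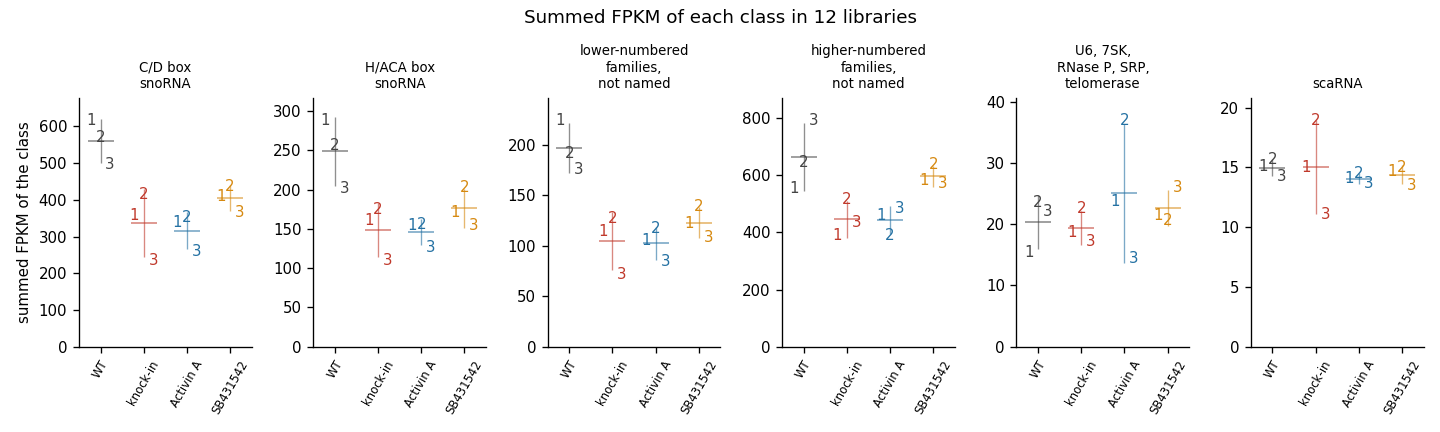
Summed FPKM (y axis, from 0) of each class in the 12 libraries, with digits for library numbers, bars for group means and lines for 1 SD. WT stands above knock-in for both snoRNA classes, whereas the scaRNA means are 15.0 FPKM in both groups.

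Among the C/D box snoRNAs, the largest change was in RF00136 (SNORD81), which in humans is hosted by GAS5. It stood at 6.33, 5.64 and 7.0 FPKM in WT and at 1.11, 0.86 and 1.26 FPKM in knock-in, a log2 fold change of -1.82 ± 0.15 (SE, adjusted p = 0.00221, limma). RF00281 (SNORD47), also a GAS5 snoRNA in humans, stood at 18.3, 17.7 and 15.8 FPKM in WT and 5.10, 4.97 and 3.08 FPKM in knock-in (-1.78 ± 0.18, adjusted p = 0.00485, limma). RF00088 (SNORD30), which lies in human SNHG1, stood at 20.7, 16.6 and 12.3 FPKM in WT and 6.35, 6.63 and 2.12 FPKM in knock-in (-1.62 ± 0.36, adjusted p = 0.0402, limma). RF00569 (SNORD19) stood at 7.67, 6.28 and 5.37 FPKM in WT and 1.19, 2.80 and 0.78 FPKM in knock-in (-1.59 ± 0.28, adjusted p = 0.0250, limma). In none of these 4 did the groups overlap, which the rule for naming members required and which held for all 30 called members. RF00088 and RF00569 each lost their call in 4 of the 6 fits without a single library (RF00088 without WT 1, WT 2, knock-in 1 or knock-in 2, at adjusted p = 0.0761 to 0.115, and RF00569 without WT 1, WT 2, knock-in 1 or knock-in 3, at 0.0504 to 0.0948, limma), and with no low-value filter.

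Among the H/ACA box snoRNAs, RF00394 (SNORA4) stood at 15.6, 14.1 and 7.92 FPKM in WT and 2.57, 2.52 and 2.33 FPKM in knock-in (log2 fold change -1.91 ± 0.24, adjusted p = 0.00998, limma). RF01241 (SNORA81) stood at 24.4, 19.2 and 16.6 FPKM in WT and 5.84, 6.09 and 4.15 FPKM in knock-in (-1.72 ± 0.19, adjusted p = 0.00625, limma). Both lie in introns of EIF4A2, a translation initiation factor gene, in humans, and neither had overlapping groups, again as the naming rule required. Of the unnamed lower-numbered families, RF00592 stood at 20.9, 15.1 and 16.2 FPKM in WT and 4.84, 6.68 and 2.43 FPKM in knock-in (-1.77 ± 0.29, adjusted p = 0.0208, limma). It lost its call without WT 1 (adjusted p = 0.0659, limma) and without knock-in 1 (adjusted p = 0.0656, limma).

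The 3 called members of higher-numbered families bore adjacent numbers and had similar levels. RF01877 stood at 45.1, 32.6 and 27.1 FPKM in WT and 8.59, 4.15 and 7.90 FPKM in knock-in, the largest called change of all members on the log2(FPKM + 1) scale (-2.21 ± 0.27, adjusted p = 0.00998, limma). RF01876 stood at 43.3, 28.4 and 33 FPKM in WT and 13.0, 8.04 and 6.62 FPKM in knock-in (-1.84 ± 0.25, adjusted p = 0.0122, limma). RF01875 stood at 45.1, 29.4 and 30.0 FPKM in WT and 11.7, 8.68 and 13.1 FPKM in knock-in (-1.55 ± 0.21, adjusted p = 0.0119, limma). Each of these families had 1 row in the table, and all 3 rows kept their call without any single library.

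**Figure D3:**
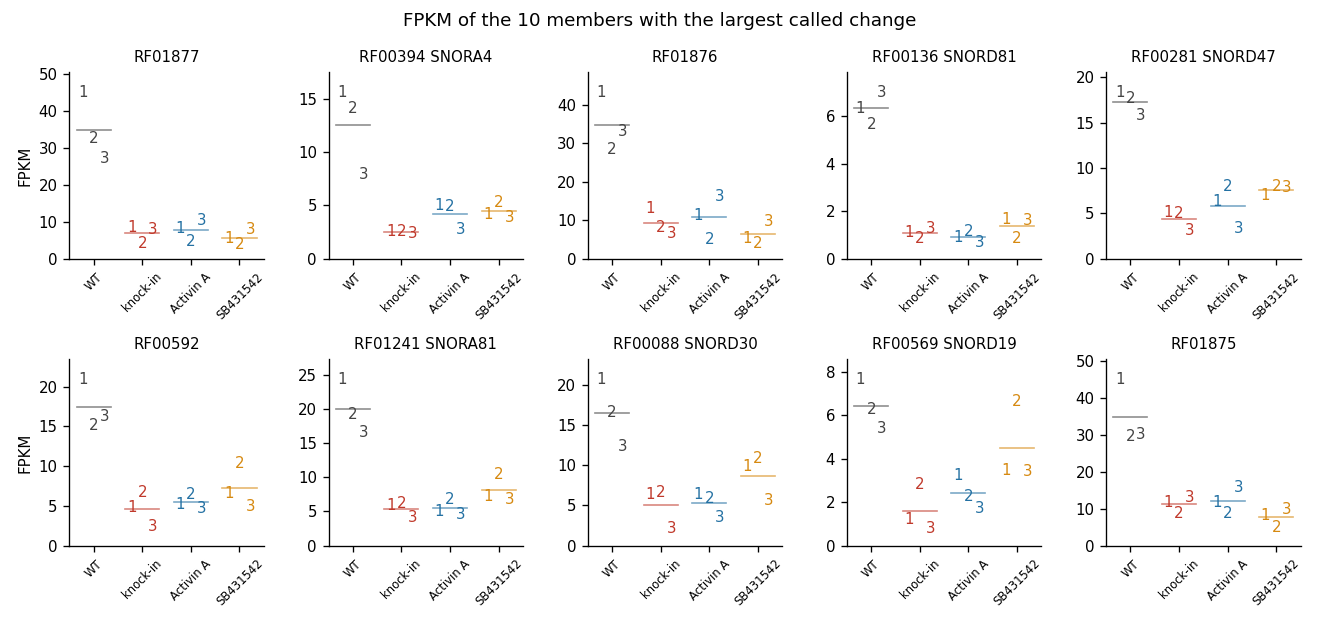
FPKM of the 10 members with the largest called change, with digits for library numbers and lines for group means. In each panel every WT library lies above every knock-in library, as the rule for naming members required groups that do not overlap.

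The knock-in cells of the second table can be set beside these levels, without a test across tables. RF01877 stood at 8.13, 4.71 and 10.3 FPKM with Activin A and 5.52, 3.89 and 7.86 FPKM with SB431542. RF00136 (SNORD81) stood at 0.90, 1.15 and 0.67 FPKM with Activin A and 1.63, 0.86 and 1.62 FPKM with SB431542. Both were chosen for high levels in WT relative to knock-in, so these values are a description.

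Members were also grouped by human host, after values were seen and with no test between hosts. A host was named for 74 members, and only hosts with at least 1 called member are detailed below. With all libraries, every other host had 0 called. Among these were RPL7A and RPL4 with 4 members each, RPL23 and SNHG29 with 3 each, SNHG12 with 2 and SNHG5 with 1. All 4 members whose human host is GAS5 (SNORD47, SNORD74, SNORD79 and SNORD81) were called lower, and their summed FPKM was 47.3, 53.2 and 47.3 in WT and 17.3, 18.6 and 12.9 in knock-in. Without a single library 2 (without knock-in 1) or 3 (without any other) of these 4 were called, and SNORD79 lost its call in each of these fits. Of 5 EIF4A2 members, 4 were called (SNORA4, SNORA81 and 2 rows of SNORA63), with sums of 83.9, 69.4 and 63.2 FPKM in WT and 23.7, 28.6 and 18.5 FPKM in knock-in, and 3 or 4 were called without a single library. Of 8 SNHG1 members, 4 were called (SNORD28, SNORD30 and 2 rows of SNORD22), with sums of 89.0, 93.9 and 80.1 FPKM in WT and 40.5, 43.1 and 22.3 FPKM in knock-in. This count was 1 without knock-in 1, knock-in 2 or WT 2, 2 without knock-in 3 or WT 1, and 3 without WT 3. EIF4A1 had 2 of 3 members called, and RABGGTB, RPL17 and RPS12 had 1 of 2, 1 of 3 and 1 of 2. For these 4 hosts the counts ranged from 0 to 2 without a single library. Of 4 RPL13A members, 1 was called (SNORD35A, also in each of the 6 fits without a single library), and SNORD34 and 2 rows of SNORD33 were not. Their sums were 57.3, 64.8 and 62.7 FPKM in WT and 55.8, 59.3 and 35.6 FPKM in knock-in. The hosts are known from humans and their place in the pig genome was not checked.

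Of the members with a human host, 43 could be paired with the mRNA of that host, 22 hosts in all. Of the 22 host mRNAs, 0 were called (limma), while 7 were lower and 2 higher at an unadjusted p under 0.05. Their median log2 fold change was -0.19, and the members paired with them had a median of -0.60. The member had the lower fold change in 32 of 43 pairs. EIF4A2 mRNA stood at 309, 161 and 148 FPKM in WT, with WT 1 far above the others, and at a mean of 122 ± 14.8 FPKM in knock-in (SD, n = 3) (log2 fold change -0.68, adjusted p = 0.149, limma), against -0.91 for SNORD2, which was not called, and -1.33 to -1.91 for the 4 called among its 5 snoRNAs. RABGGTB, host of SNORD45A and SNORD45B, had means of 26.1 FPKM in WT and 23.0 FPKM in knock-in (-0.20, adjusted p = 0.550, limma). The log2 fold change was -1.32 for SNORD45B, which was called, and -1.35 for SNORD45A, which was not. The full host list held 75 genes, of which 55 were matched by symbol and 54 tested. Of the 54, 0 were called (limma), with 8 lower and 7 higher at an unadjusted p under 0.05. GAS5, SNHG1, RPL13A and RPL17 were not matched, so the host RNA of their members could not be examined. Only 8 of the 43 pairs held a called member. Pairs that share a host share its value.

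**Figure D4:**
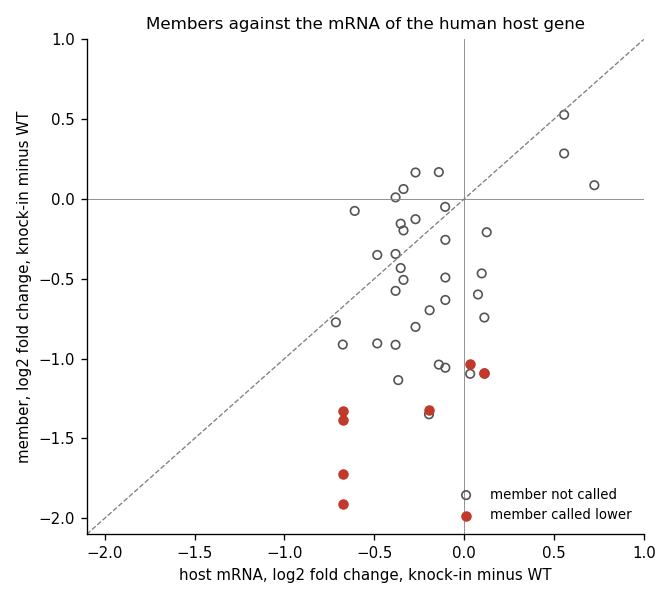
Log2 fold change of each member (y axis) against that of the mRNA of its human host gene (x axis), knock-in minus WT, for 43 pairs. The dashed line marks equal change, and 32 pairs lie below it.

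Proteins that bind and process these RNAs were examined as lists. Of the C/D core proteins (FBL, NOP56, NOP58 and SNU13), 0 of 4 were called, with a median log2 fold change of 0.08. Of the H/ACA core proteins DKC1, NOP10 and GAR1, 0 of 3 were called, with a median of 0.41, and the remaining core protein, NHP2, was not matched by symbol. Assembly factors gave 0 of 14 and a median of 0.07, and 3' end processing and decay factors gave 0 of 24 and a median of -0.06. Protein partners of the other structured RNAs gave 0 of 32 and 0.06, from a list of 35 of which 32 were matched by symbol. At an unadjusted p under 0.05 (limma), 1 C/D core, 2 H/ACA core, 1 assembly, 4 processing and decay and 7 partner genes were higher, and 0, 0, 0, 1 and 1 were lower. Replication-dependent histone genes gave 0 of 13 called and 5 higher at an unadjusted p under 0.05, and their sum was 23.2 ± 7.45 FPKM in WT and 34.3 ± 8.46 FPKM in knock-in. HIST1H1D gave most of that difference, at 2.90, 8.65 and 9.47 FPKM in WT and 17.4, 18.3 and 10.3 FPKM in knock-in (adjusted p = 0.118, limma), and 4 of the 13 had a fold change below 0. All 13 mitochondrial protein genes had a fold change below 0 (median -0.50), with 0 called and 9 lower at an unadjusted p under 0.05 (limma).

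Several abundant members did not differ past the threshold. RF00056 (SNORA71, ENSSSCG00000025722) stood at 27.1, 31.4 and 21.9 FPKM in WT and 33.2, 35.4 and 28.4 FPKM in knock-in, with overlapping groups (0.27 ± 0.15, adjusted p = 0.280, limma). RF00147 (SNORD34) stood at 27.3, 30.3 and 27.9 FPKM in WT and 28.3, 33.2 and 20.9 FPKM in knock-in (-0.07 ± 0.17, adjusted p = 0.802, limma). RF00604 (SNORD88), a family of 4 members, summed to 15.0 ± 3.03 FPKM in WT and 22.2 ± 6.46 FPKM in knock-in. RF00153 (SNORD62, ENSSSCG00000039608), named after its values were seen, was the only member with a fold change above 0 and an adjusted p of at most 0.05, against 4.88% of all genes. It stood at 1.11, 1.07 and 1.68 FPKM in WT and 2.47, 2.93 and 3.04 FPKM in knock-in (0.75 ± 0.15, adjusted p = 0.0348, limma), under the fold threshold, and the other row of that family had overlapping groups.

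Among the most abundant members, RF02266 stood at 63.9, 62.6 and 69.8 FPKM in WT and 25.1, 34.9 and 38.4 FPKM in knock-in, and fell just short of the fold threshold (-0.996 ± 0.16, adjusted p = 0.0193, limma). RF01971, the member with the highest mean, stood at 34.2, 64.1 and 81.0 FPKM in WT and 32.0, 36.1 and 27.8 FPKM in knock-in. Its groups overlapped through WT 1 (-0.80 ± 0.29, adjusted p = 0.123, limma), and it passed the threshold without that library (-1.16, adjusted p = 0.0278, limma).

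The second comparison set knock-in cells given Activin A against knock-in cells given SB431542. It held no untreated cells in the medium without LIF, so a difference cannot be assigned to either agent. No member was called in either direction, and over all 13999 genes tested 5 (0.0357%) were called lower and 8 (0.0571%) higher in Activin A (limma). With the replicate number as a block, 26 genes were called lower and 73 higher, and members still gave 0. At an unadjusted p under 0.05, 32 members were lower and 1 higher in Activin A, against 6.76% and 6.07% of all genes. Groups did not overlap for 33 members lower in Activin A and 1 higher, against 10.8% and 9.19% of all genes. Fold changes were below 0 for 150 of the 185 members, against 50.9% of all genes, with a median of -0.23 on the log2 scale over the members and 0.00 over all genes, and the smallest adjusted p among members was 0.141 (limma). Summed FPKM of all members was 1095, 1066 and 981.9 with Activin A and 1319, 1453 and 1241 with SB431542, so the sums did not overlap. C/D box snoRNAs summed to 316 ± 50.5 and 405 ± 35.6 FPKM and had a median of -0.28, and H/ACA box snoRNAs summed to 146 ± 16.5 and 176 ± 24.7 FPKM and had a median of -0.18 (SD, n = 3 each). Fibroblast markers summed to 44.4 to 69.9 FPKM with Activin A and 9.88 to 17.4 FPKM with SB431542. Of 5 tested, 0 were called, and at an unadjusted p under 0.05 (limma) 3 were higher and 0 lower in Activin A. COL3A1 made up 42.9 FPKM of the sum in Activin A library 3. COL1A1 went the other way, with means of 0.38 FPKM with Activin A and 0.47 FPKM with SB431542. Pericyte markers summed to 43.1 to 48.5 and 57.7 to 59.2 FPKM, with ACTA2 called lower in Activin A (-1.13, adjusted p = 0.0346, limma). Of 6 tested, 3 had a fold change below 0, while NOTCH3, RGS5 and CSPG4 were above 0. At an unadjusted p under 0.05 (limma), 2 were lower and 1 higher in Activin A. The part of these markers in the members' values was not tested.

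Members also varied by library number within groups. Of 109 snoRNA members, the lowest of the 3 libraries was number 3 for 81 in knock-in, 69 with Activin A, 54 with SB431542 and 58 in WT. Library 3 was thus the lowest most often in every group, WT included, and the cause was not tested. The labels of the treated groups number the libraries but do not name the line.

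Other families followed number 2. RF01955, RF01956 and RF01957 stood at 53.0, 51.2 and 54.3 FPKM in knock-in 2 (line nanog2), against 17.3 to 25.8 FPKM in the other knock-in libraries. In SB431542 library 2 they stood at 75.4, 74.0 and 78.9 FPKM, against 28.8 to 38.3 FPKM in the others. In Activin A library 2 the excess was smaller, with 37.2, 32.4 and 38.4 FPKM against 24.4 to 29.9 FPKM. In WT, library 2 did not stand out, since RF01955 was at 24.0, 24.3 and 22.2 FPKM. RF02162, with 7 rows that are all members, differed most among the WT libraries, where its rows together summed to 97.2 FPKM in WT 1 and 264 FPKM in WT 3.

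**Figure D5:**
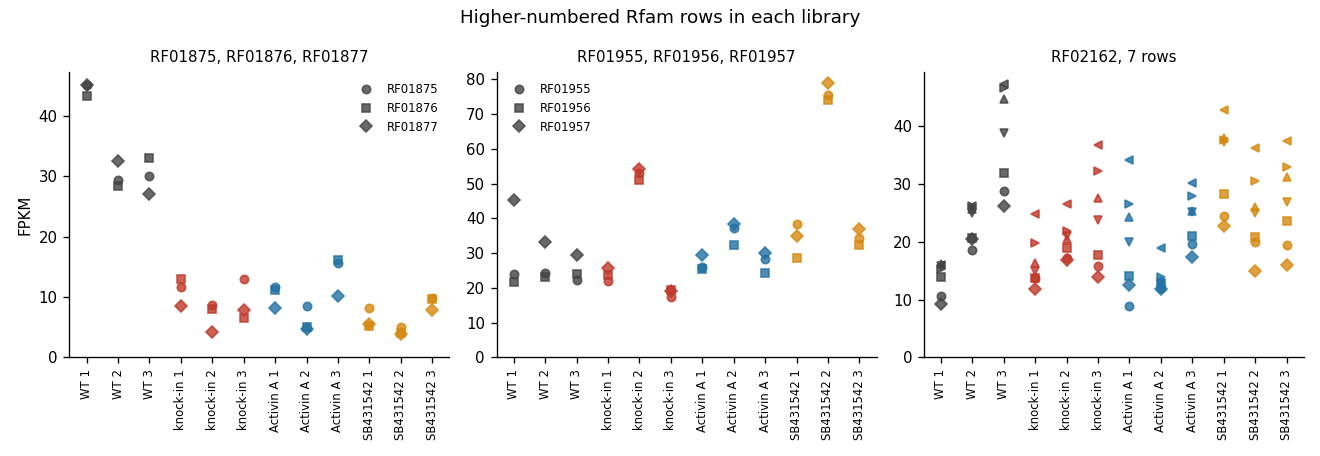
FPKM of RF01875 to RF01877, RF01955 to RF01957 and the 7 rows of RF02162 in each library, with 1 symbol per row. The first set is highest in the WT libraries, the second in knock-in 2 and SB431542 library 2, and the third in WT 3.

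Activin A library 2 stood apart for 3 RNAs that act in transcription, RNA processing and protein export. RF00100 (7SK, which holds the elongation factor P-TEFb inactive) was at 10.8 FPKM there and at 2.63 and 1.96 FPKM in the other Activin A libraries. RF00009 (RNase P RNA, which trims tRNA precursors) was at 5.90 FPKM against 2.24 and 1.53 FPKM. RF00017 (SRP RNA, which targets nascent proteins to the endoplasmic reticulum) was at 5.29 FPKM against 0.35 and 0.76 FPKM. These are values of 1 library and carry no replicate check. RF00017 passed the member threshold of 1 FPKM only through this library. Its group means were 0.58 FPKM in knock-in, 0.67 FPKM in WT and 1.01 FPKM with SB431542. These 3 rows were named after their values were seen, as were RF02153 and RF00407 below.

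A few rows switched between a level of several FPKM and almost none. RF02153 stood at 0.18, 9.03 and 0.18 FPKM in WT, 0.10, 8.07 and 0.10 FPKM in knock-in, 5.34, 6.21 and 9.48 FPKM with Activin A and 7.26, 0.10 and 9.20 FPKM with SB431542. RF00598 (SNORA50C, ENSSSCG00000038887) was listed at 0 in knock-in 3, Activin A 1 and 2 and SB431542 2 and 3, and at 1.20 to 3.96 FPKM elsewhere. RF00407 was at 0.01 FPKM or less in 7 of the 12 libraries and at 1.64 to 3.79 FPKM in the others. Such switches crossed the groups. RF00407 did not pass the filter in the knock-in table and RF00598 did not pass it in the other, so that each comparison tested 185 members.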

How the data were processed

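The authors deposited FPKM per gene, in separate tables for knock-in with WT and for Activin A with SB431542. They removed adaptors with Trim Galore, aligned reads to Ssc11.1 with HISAT2 2.0.4 and computed FPKM with StringTie 1.3.3 from the Ensembl annotation; bcl2fastq 2.17.1.14 and featureCounts 1.6.4 are in the submitters' processing notes. FPKM is scaled to library and gene length, which makes short genes sensitive to few fragments and to fragment size selection. Counts were not used, which leaves total depth unknown and counting error out of reach.

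Tables were joined by identifier. Tests were run separately for each pair of groups, on genes at 0.1 FPKM or more in 3 or more of 6 libraries, log2(FPKM + 1), limma 3.58.1 with variance trend in R 4.3.3 (package data.table, version 1.17.8). These fold changes understate changes of low genes. Figures used matplotlib 3.10.9 in Python 3.11.15. The fit was tested on simulated data.

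Members and lists were chosen with earlier results of these data known. Family names came from the gene table for 34 members and from general knowledge of Rfam for 90, and 62 stayed unnamed; hosts came from general knowledge of humans. Named members are the 10 called with the largest change, the 10 most abundant, those at the threshold, families of 2 or more and members at 0. The 10 called were taken from members whose groups did not overlap. Other members are said to be named after their values were seen. Libraries numbered alike in Activin A and SB431542 deviated together (r = 0.400, 0.587 and 0.535 across all genes tested; -0.06, 0.35 and 0.18 across members, so pair 1 did not do so among members), and the numbering in the labels is where the pairing comes from. Alternatives were other pseudocounts, filters, scalings, variance models, member thresholds and call rules, families summed, the replicate block and leaving out each library. Sequences and coordinates of members were not used here.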

Additional observations from a re-analysis of the deposited data

How the results depend on the processing

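Knock-in against WT, 30 members were called lower, and the count was 16 with no filter, 19 of 77 at a member threshold of 5 FPKM and 10 to 30 without a single library. It stayed within 1.5 times under the other alternatives, among them 26 with the replicate block. Over all genes tested, the number called lower was 99, and 60 with that block. Across all genes tested, libraries with the same number did not deviate together (r = -0.02, 0.01 and 0.09), so the numbers were not taken as pairs; across the members r was 0.17, 0.22 and 0.27, and negative for every unlike pair. The count called higher was 0, and 1 with a pseudocount of 0.1, 1 with 0.01 and 1 by adjusted p alone. The median of -0.48 was -0.79 at a member threshold of 5 FPKM. The causes of these shifts were not tested. With no filter, RF00088 and RF00569 were among those that lost their call. Activin A against SB431542, the replicate block and every other alternative gave 0 members called. Over the 30 called members, the call was kept in 94 and lost in 86 refits without a single library, and kept in 242 and lost in 28 refits under the other alternatives that refit each member. Of these 30, 9 kept the call in all of these refits and 21 lost it in at least 1. FPKM without counts limits precision.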
